A study of Homo sapiens with 4 samples.

Results

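The genes described here are 10 enzymes of fatty acid synthesis and desaturation, chosen by gene symbol from the 12912 genes of the count table. They are ACLY, ACSS2, ACACA, FASN, SCD, ELOVL5, ELOVL6, FADS1, FADS2 and ELOVL1. All 10 were in the table and all 10 passed the filter on low counts. The RNA-seq counts came from 4 libraries, 2 for 786-O-Ctrl cells and 2 for 786-O-VHL cells. 786-O is a clear cell renal cell carcinoma (ccRCC) line without functional VHL, the substrate receptor of a ubiquitin ligase that directs HIFα proteins to degradation. 786-O-Ctrl is the VHL-null subline, and 786-O-VHL is the subline in which a retroviral vector restored HA-tagged VHL. Per the labels, both carried the triple reporter, a stably expressed fusion of GFP, luciferase and thymidine kinase. Both were cultured in RPMI medium with fetal bovine serum, and whether 786-O-Ctrl carried an empty vector is not given in the sources used here. Each group is 1 subline, so the replicates measure the spread within a subline and not between separately derived clones.

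Long-chain fatty acids are built in the cytosol from acetyl-CoA. ATP citrate lyase (ACLY) makes acetyl-CoA from citrate, and ACSS2 makes it from acetate. Acetyl-CoA carboxylase (ACACA) converts it to malonyl-CoA, and fatty acid synthase (FASN) condenses both into palmitate. Elongases of the ELOVL family then extend the chain in the endoplasmic reticulum, where SCD, FADS1 and FADS2 insert double bonds. Many of these genes are known targets of the SREBP transcription factors, and stored lipid gives ccRCC cells their clear cytoplasm.

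VHL mRNA was at 42.9 and 43.9 CPM (a gene's counts relative to the TMM-scaled total of its library) in 786-O-Ctrl and at 178 and 163 CPM in 786-O-VHL, so the libraries followed their labels. Between 15714166 and 22141263 counts were assigned to genes per 786-O-Ctrl library, 2807779 in 786-O-VHL replicate 1 and 16114120 in replicate 2. The 786-O-Ctrl columns share 1 name, so these libraries are distinguished as deeper and shallower. All 7 renal tubule and carcinoma markers looked up were in the table, with a summed level of 2945 and 2933 CPM in 786-O-Ctrl and of 1597 and 1572 CPM in 786-O-VHL. The largest part of this sum was VIM, at 1669 and 1699 CPM in 786-O-Ctrl and at 751 and 709 CPM in 786-O-VHL. Of the 7 markers, 5 were lower at an edgeR FDR under 0.05, and KRT18 and LHX1 did not pass. PAX8, a transcription factor of the renal lineage, was at 277 and 272 CPM in 786-O-Ctrl and at 166 and 137 CPM in 786-O-VHL. Of the markers of other cell types, 1 of 6 for blood, 2 of 4 for endothelium and 3 of 5 for fibroblasts were in the table. The blood list summed to between 0.0665 and 1.02 CPM in a library, and the endothelial list to between 0.339 and 0.76 CPM, with KDR at 0 in 786-O-VHL replicate 1. The fibroblast list summed to 10.45 and 11.4 CPM in 786-O-Ctrl and to 15.3 and 14.6 CPM in 786-O-VHL. The part of these marker differences in the results was not tested. In bulk RNA, fewer cells that express a gene and less of its RNA per cell cannot be told apart.

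Promoter sequences are shown for 5 members that fell in 786-O-VHL, chosen as examples of windows with 2 copies of the CCAAT box and with none. RefSeq windows (GRCh38.p14) were found for 9 of the 10 members, and FASN was not matched. Each window printed is the 250 bases before an annotated start, written 5′ to 3′ on the strand of the gene, and occurs once, letter for letter, on its chromosome in GRCh37. Those of SCD (plus strand, chr10:102106740-102106989), ACLY (minus strand, chr17:40075276-40075525) and ELOVL5 (minus strand, chr6:53213749-53213998) each hold 2 copies of CCAAT, the core of the box bound by NF-Y. Those of ELOVL6 (minus strand, chr4:111119772-111120021) and FADS1 (minus strand, chr11:61584476-61584725) hold none. The windows of ACLY, ELOVL6 and FADS1 lie inside the annotated span of their gene and that of ELOVL5 mostly does, while that of SCD lies outside it. Capitals mark CCAAT, or ATTGG where it lies on the opposite strand, and in ELOVL5 also the E-box CACGTG.
SCD: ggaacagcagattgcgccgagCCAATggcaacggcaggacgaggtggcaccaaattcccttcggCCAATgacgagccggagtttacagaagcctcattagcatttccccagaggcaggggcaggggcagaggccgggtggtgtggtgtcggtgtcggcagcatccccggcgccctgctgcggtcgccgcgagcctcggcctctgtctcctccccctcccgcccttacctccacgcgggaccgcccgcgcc
ACLY: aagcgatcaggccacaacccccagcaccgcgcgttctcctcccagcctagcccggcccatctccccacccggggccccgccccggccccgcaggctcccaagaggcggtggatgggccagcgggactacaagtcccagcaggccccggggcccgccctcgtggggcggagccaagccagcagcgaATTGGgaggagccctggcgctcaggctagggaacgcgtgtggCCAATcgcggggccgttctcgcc
ELOVL5: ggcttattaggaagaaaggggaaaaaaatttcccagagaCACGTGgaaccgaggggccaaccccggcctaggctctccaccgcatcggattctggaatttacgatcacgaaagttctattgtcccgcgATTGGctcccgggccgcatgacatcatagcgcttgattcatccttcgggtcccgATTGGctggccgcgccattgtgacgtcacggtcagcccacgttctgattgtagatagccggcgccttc
ELOVL6: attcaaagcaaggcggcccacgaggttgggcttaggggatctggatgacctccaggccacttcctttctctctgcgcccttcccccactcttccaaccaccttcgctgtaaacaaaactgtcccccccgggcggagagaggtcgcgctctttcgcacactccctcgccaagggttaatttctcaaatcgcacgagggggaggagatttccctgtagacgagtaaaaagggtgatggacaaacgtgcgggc
FADS1: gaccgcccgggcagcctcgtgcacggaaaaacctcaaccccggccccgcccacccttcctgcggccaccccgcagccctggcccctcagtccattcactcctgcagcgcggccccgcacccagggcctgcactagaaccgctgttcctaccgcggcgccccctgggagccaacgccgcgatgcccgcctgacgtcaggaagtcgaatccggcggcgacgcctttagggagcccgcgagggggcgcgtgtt

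Motifs were searched on both strands in the 250 bases before each start. CCAAT was found for 6 of the 9 members (ACLY, ACSS2, ACACA, SCD, ELOVL5 and ELOVL1) and for 37.0% of 27305 genes with a window. It was absent from the windows of FADS1, FADS2 and ELOVL6, and for ACSS2 it was present in 1 window only. Whether these letters bear on the change of any member was not tested. The GC box GGGCGG was found for 8 of the 9 members and for 46.2% of all genes. ACGTG, the core letters of a HIF site, was found for 4 members (ACACA, ELOVL5, ELOVL6 and ELOVL1) and for 21.7% of all genes. It is contained in the E-box CACGTG, which was found for ELOVL5 alone among the members and for 7.73% of all genes. The sterol response element, searched as TCACNCCAC, was found for 0 of the 9 members and for 1.09% of all genes. These are matches of letters in short windows and not measured binding sites.

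To ask how VHL restoration was associated with the mRNA of this pathway, 786-O-VHL was compared with 786-O-Ctrl. Of the 10 members, 9 were lower in 786-O-VHL and 1, ACSS2, was higher, all with an edgeR FDR under 0.05. Across the 12335 genes tested, 31.9% were lower and 32.6% were higher at that threshold, or 3939 and 4017 genes. The members were chosen with earlier results of these data known, so the shares beside them are a description and not a test. For the 9 genes the groups did not overlap, as for 39.2% of all genes in this direction. A fall of more than 2-fold was seen for 6 members (ACACA, FASN, SCD, ELOVL6, FADS1 and FADS2) and for 7.52% of all genes. ACACA fell short of 2-fold under library totals (log2 fold change -0.94) and without 786-O-VHL replicate 1 (log2 fold change -0.88). With library totals in place of TMM, the split over all genes was 3097 lower and 5077 higher, and the members still divided 9 to 1. The log2 fold change of the members (786-O-VHL over 786-O-Ctrl) had a median of -1.18 and ran from -2.20 to 0.49, beside a median of 0.02 over all genes tested. In 786-O-Ctrl, 0.385% and 0.375% of all counts fell on the 10 genes together, against 0.169% and 0.17% in 786-O-VHL.

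**Figure D1:**
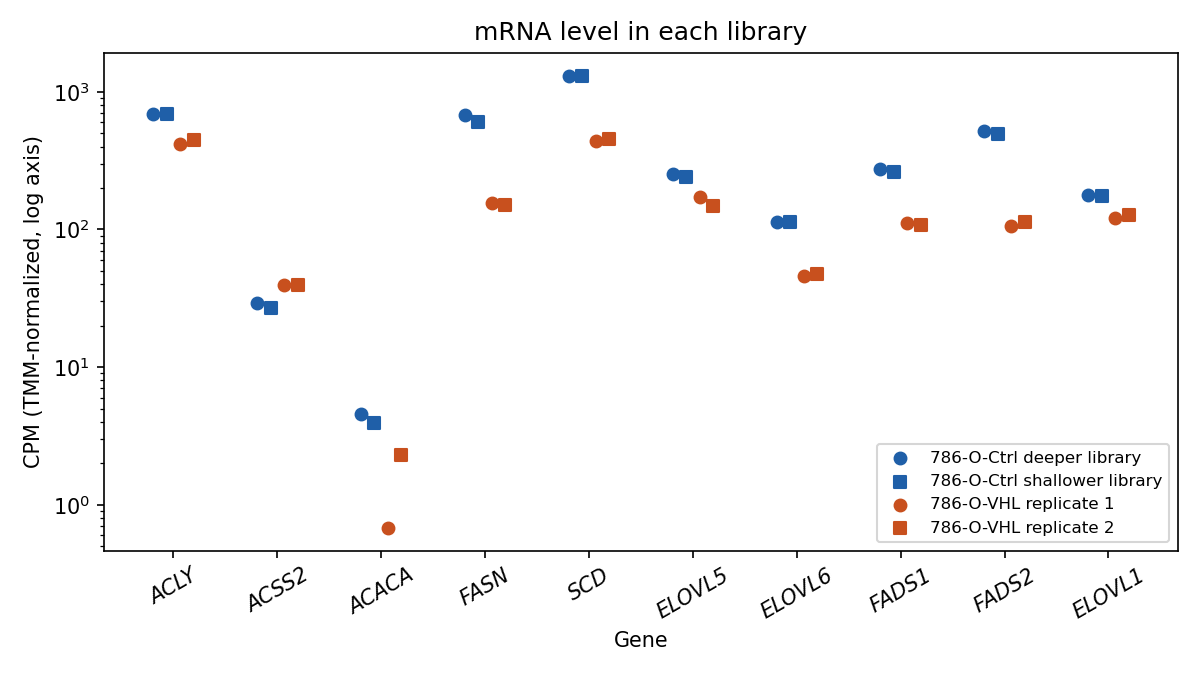
Level of each gene (CPM, log axis) in the deeper (blue circles) and shallower (blue squares) 786-O-Ctrl library and in 786-O-VHL replicate 1 (orange circles) and replicate 2 (orange squares). Both orange points lie below both blue points for 9 genes and above them for ACSS2, and the 786-O-VHL replicates lie farthest apart for ACACA, at 0.678 and 2.32 CPM.

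The enzymes that supply cytosolic acetyl-CoA went in opposite directions. ACLY (ENSG00000131473.17, chr17:40023170-40086795 of GRCh37, minus strand) was at 693 and 685 CPM in 786-O-Ctrl and at 416 and 443 CPM in 786-O-VHL. Its groups did not overlap, and the log2 fold change was -0.68 (standard error, SE, 0.0614, edgeR FDR = 1.39e-10). ACSS2 (ENSG00000131069.20, chr20:33459949-33515765, plus strand) was at 29.2 and 26.8 CPM in 786-O-Ctrl and at 39.7 and 39.5 CPM in 786-O-VHL. Both 786-O-VHL libraries were above both 786-O-Ctrl libraries, as for 40.8% of all genes tested, and the log2 fold change was 0.49 (SE 0.0998, edgeR FDR = 9.51e-05). Replicate 1 of 786-O-VHL had 117 ACSS2 counts. For each ACLY count there were 0.0421 and 0.0391 ACSS2 counts in 786-O-Ctrl, against 0.0955 and 0.0891 in 786-O-VHL. ACLY overlaps a long noncoding RNA gene on the opposite strand, as does ELOVL6, and neither of these RNA genes was analysed here.

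ACACA encodes the carboxylase of the committed step. The table holds the symbol under more than 1 identifier, and the one with most counts, ENSG00000278540.5 (chr17:35441927-35766927, minus strand), had 96 and 59 counts in 786-O-Ctrl. It had 2 counts in 786-O-VHL replicate 1 and 39 in replicate 2. The other, ENSG00000275176.4, was not found in the annotation used here and had 15, 12, 2 and 7 counts in the same order. These counts are far below those of the other members, and reads from identical copies can be split or dropped in counting, so the level of ACACA is uncertain. In CPM the main identifier was at 4.56 and 3.92 in 786-O-Ctrl and at 0.678 and 2.32 in 786-O-VHL, and its log2 fold change was -1.08 (SE 0.321, edgeR FDR = 0.00457). Leaving out replicate 2 of 786-O-VHL gave a log2 fold change of -2.64, and leaving out replicate 1 gave -0.88. The call was lost without the deeper 786-O-Ctrl library (log2 fold change -1.0, edgeR FDR = 0.0568) and with DESeq2 (log2 fold change -1.27, adjusted p = 0.0565). Over the alternatives the FDR was between 0.00144 and 0.0568.

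FASN (ENSG00000169710.9, chr17:80036214-80056170, minus strand), the multifunctional synthase that releases palmitate, fell to 23.8% of its 786-O-Ctrl mean. It was at 673 and 604 CPM in 786-O-Ctrl and at 154 and 149 CPM in 786-O-VHL. The groups were well apart, and the wider spread was that of 786-O-Ctrl. The log2 fold change was -2.08 (SE 0.07, edgeR FDR = 7.4e-20). FASN and FADS2 were the 2 members past a 4-fold change with an edgeR FDR under 0.01, which 1.54% of all genes tested passed in this direction. FASN lies near this limit, with a fold change of 4.23, and it fell short of 4-fold without the deeper 786-O-Ctrl library, after thinning to the shallowest library and with library totals in place of TMM. In the other direction 2.92% of all genes passed, and ACSS2, at 1.41-fold, did not. For each ACLY count there were 0.97 and 0.881 FASN counts in 786-O-Ctrl, against 0.371 and 0.337 in 786-O-VHL.

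All 3 desaturases among the members fell, while FADS3 and SCD5, which are not members, rose. FADS2 fell most of all members, except without 786-O-VHL replicate 2, where ACACA had the lowest value. SCD (ENSG00000099194.6, chr10:102106990-102124583, plus strand), the delta-9 desaturase that makes oleate and palmitoleate, was at 1309 and 1308 CPM in 786-O-Ctrl and at 441 and 453 CPM in 786-O-VHL. Its replicates were nearly equal and its groups far apart, and the log2 fold change was -1.55 (SE 0.061, edgeR FDR = 1.92e-18). Of the counts of the 10 members, SCD made up 32.3% and 33.4% in 786-O-Ctrl, against 27.4% and 27.8% in 786-O-VHL.
FADS2 (ENSG00000134824.14, chr11:61560452-61634826, plus strand), the delta-6 desaturase that starts the conversion of essential fatty acids, was at 520 and 495 CPM in 786-O-Ctrl. In 786-O-VHL it was at 106.5 and 113 CPM. The groups did not overlap, with a log2 fold change of -2.20 (SE 0.0687, edgeR FDR = 1.49e-20). FADS1 (ENSG00000149485.18, chr11:61567099-61596790, minus strand), the delta-5 desaturase, was at 275 and 260 CPM in 786-O-Ctrl and at 111 and 107 CPM in 786-O-VHL. Its log2 fold change was smaller, at -1.30 (SE 0.0679, edgeR FDR = 9.33e-16).
FADS1 and FADS2 are neighbors on opposite strands whose annotated spans overlap. Their exons share 490 bases, which is 4.79% of the exon bases of FADS1 and 4.64% of those of FADS2. FADS2 also shares 49 exon bases with FEN1, a flap endonuclease gene on the same strand, whose log2 fold change was -2.71. Since the use of strand in counting is not given in the sources used here, reads from these bases cannot be assigned with certainty. FADS2 had 1.89 and 1.91 counts for each FADS1 count in 786-O-Ctrl, against 0.96 and 1.05 in 786-O-VHL. The ratio was therefore lower in both 786-O-VHL libraries, but 2 libraries against 2 cannot reach a two-sided exact permutation p below 0.333.

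The 3 elongases fell by different amounts, with ELOVL6 falling most. ELOVL6 (ENSG00000170522.9, chr4:110967002-111120355, minus strand), which extends palmitate to stearate, was at 114.1 and 114.0 CPM in 786-O-Ctrl and at 45.8 and 47.0 CPM in 786-O-VHL. Replicates were nearly equal, and the log2 fold change was -1.29 (SE 0.074, edgeR FDR = 8.4e-15). ELOVL5 (ENSG00000012660.14, chr6:53132196-53213977, minus strand), which extends polyunsaturated acyl chains, was at 251 and 239 CPM in 786-O-Ctrl and at 173 and 147 CPM in 786-O-VHL. Its 786-O-VHL replicates were the least alike of the members other than ACACA, and its log2 fold change was -0.65 (SE 0.0708, edgeR FDR = 5.11e-09). ELOVL1 (ENSG00000066322.15, chr1:43829069-43833745, minus strand), which makes very long saturated and monounsaturated chains, was at 177 and 175.5 CPM in 786-O-Ctrl and at 120 and 126 CPM in 786-O-VHL. Its log2 fold change was -0.50 (SE 0.0653, edgeR FDR = 1.33e-07), the smallest fall of the 9, but without 786-O-VHL replicate 2 that of ELOVL5 was smaller, at -0.51 against -0.55.
For each ELOVL1 count there were 0.645 and 0.65 ELOVL6 counts in 786-O-Ctrl, against 0.38 and 0.372 in 786-O-VHL. For ELOVL5 the ratio to ELOVL1 was 1.42 and 1.36 in 786-O-Ctrl, against 1.44 and 1.17 in 786-O-VHL, so that these groups overlapped.

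**Figure D2:**
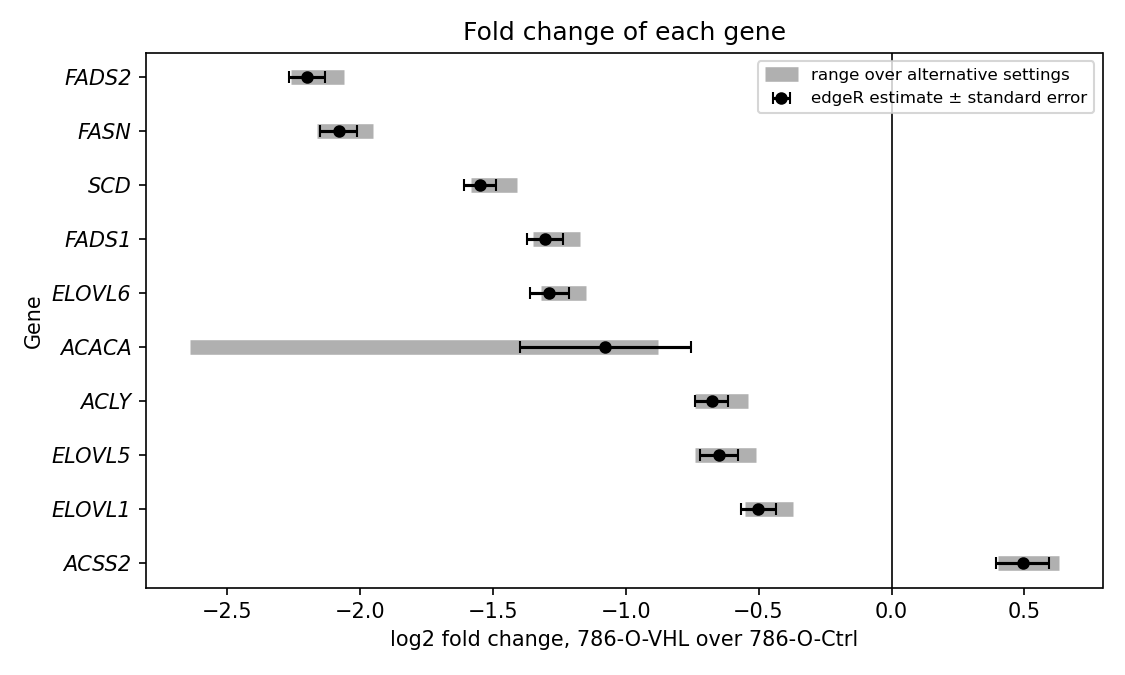
Log2 fold change of each gene (786-O-VHL over 786-O-Ctrl, x axis) with its standard error (black) and the range over the alternative settings (grey bars). FADS2 and FASN lie near -2, ACLY, ELOVL5 and ELOVL1 between -0.68 and -0.50, and the range is widest for ACACA, from -2.64 to -0.88.

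To compare levels between genes, CPM was divided by the length of all annotated exons of a gene. On this scale (CPM per kilobase) SCD was highest in 786-O-Ctrl, at 249.5 ± 0.135 (SD, n = 2), and ACLY followed at 132.4 ± 1.1. ELOVL1, FASN and ELOVL5 came next at 70.3 ± 0.367, 68.5 ± 5.25 and 64.3 ± 2.17, where FASN overlapped both of its neighbors while ELOVL1 and ELOVL5 did not overlap. FADS2 was at 48.1 ± 1.65, FADS1 at 26.1 ± 1.09, ELOVL6 at 15.7 ± 0.00972 and ACSS2 at 5.33 ± 0.326. In 786-O-VHL, SCD and ACLY were at 85.2 ± 1.65 and 82.5 ± 3.76 and were no longer separated. ELOVL1 and ELOVL5 followed at 49.2 ± 1.69 and 42.0 ± 4.75. FASN was at 16.3 ± 0.379 and FADS2 at 10.4 ± 0.415, the latter beside FADS1 at 10.7 ± 0.249. ACSS2, at 7.54 ± 0.027, was above ELOVL6, at 6.38 ± 0.12. An SD of 2 libraries can lie below counting noise, and 786-O-VHL replicate 1 had 117 ACSS2 and 135 ELOVL6 counts. The order of these levels was not tested. ACACA was lowest in both groups. The length of all exons counts bases of rare transcripts too and lowers the values of genes with many of them, such as FADS1 and FADS2, whose annotated exons cover 10228 and 10553 bases.

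**Figure D3:**
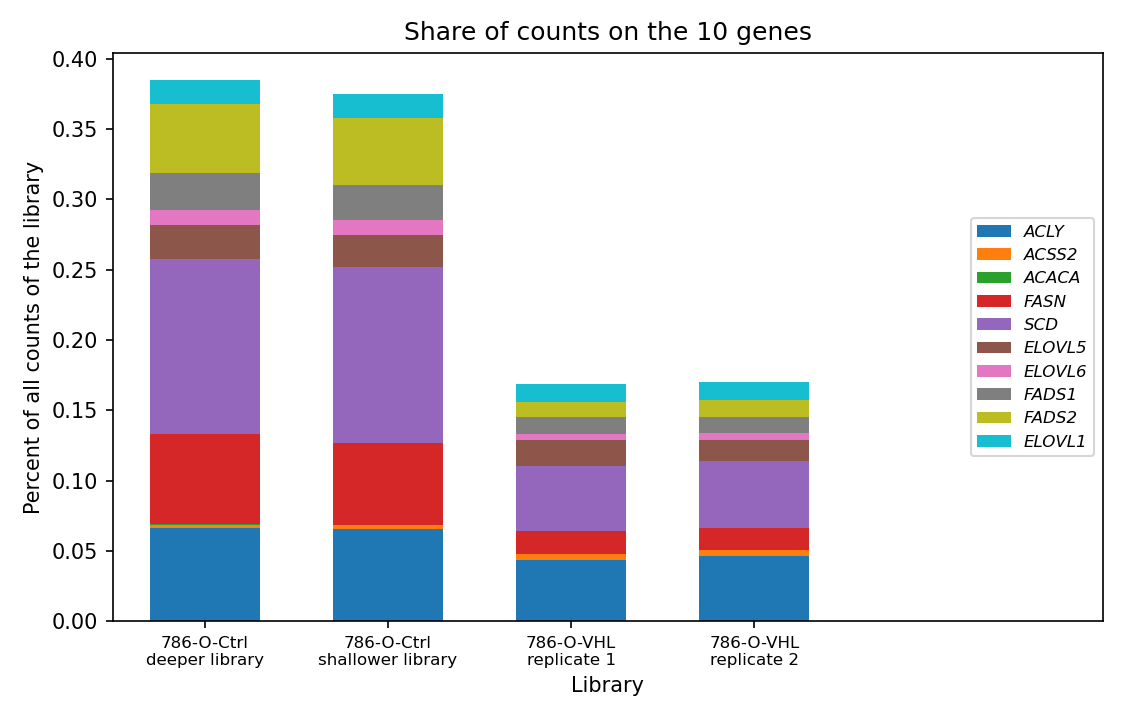
Percent of all counts of a library (y axis) that fell on each of the 10 genes (stacked colors) in the 4 libraries (x axis). The bars reach 0.385% and 0.375% in 786-O-Ctrl, against 0.169% and 0.17% in 786-O-VHL, and the segments of SCD, FASN, FADS2 and ACLY make up most of each.

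The other genes of the pathway were described by lists, each given by its counts and its median, with no test of the list. The shares over all genes tested at an edgeR FDR under 0.05 were 31.9% lower and 32.6% higher. Among other elongases, desaturases and elongation cycle enzymes, 2 of 10 tested genes were lower and 5 were higher at an edgeR FDR under 0.05, with a median log2 fold change of 0.19. ELOVL2, an elongase of polyunsaturated chains, fell from 15.5 and 16.6 CPM in 786-O-Ctrl to 6.45 and 7.07 CPM in 786-O-VHL. TECR, the reductase of the last elongation step, had a log2 fold change of -0.67. SCD5, the other human delta-9 desaturase, was at 8.02 and 9.37 CPM in 786-O-Ctrl and at 18.0 and 16.6 CPM in 786-O-VHL, and its log2 fold change was 0.97 (SE 0.158, edgeR FDR = 4.68e-06). ELOVL7 rose by 1.00 and ELOVL4 by 1.57 on the log2 scale (standard errors 0.164 and 0.428), the latter from a level under 1 CPM in 786-O-Ctrl. FADS3 was at 147 and 145 CPM in 786-O-Ctrl and at 170 and 218 CPM in 786-O-VHL. Its log2 fold change was 0.46 (SE 0.0762, edgeR FDR = 6.41e-06).

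Of 6 other acetyl-CoA and malonyl-CoA enzymes, 2 were lower and 2 were higher, beside 31.9% and 32.6% of all genes tested. Their median log2 fold change was 0.02. ACACB, the mitochondrial-surface paralog of ACACA, was at 12.2 and 10.4 CPM in 786-O-Ctrl and at 3.39 and 3.98 CPM in 786-O-VHL, and its log2 fold change was -1.55 (SE 0.211, edgeR FDR = 2.97e-07). DLAT, a subunit of pyruvate dehydrogenase, had a log2 fold change of -0.46. ACSS1, the mitochondrial counterpart of ACSS2, rose from 4.32 CPM in both 786-O-Ctrl libraries to 8.82 and 9.44 CPM in 786-O-VHL (log2 fold change 1.10, SE 0.208, edgeR FDR = 3.85e-05). ACSF3, which makes mitochondrial malonyl-CoA, had a log2 fold change of 0.85. The 5 tested genes of mitochondrial fatty acid synthesis, a separate pathway, were divided 2 lower to 3 higher, with a median of 0.27. OXSM and CBR4 rose by 0.78 and 0.56 on the log2 scale, and the values of MCAT and NDUFAB1 were -0.38 and -0.29.

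Citrate export and cytosolic NADPH supply feed the pathway with carbon and reducing power. Of 8 genes, 7 were lower at an edgeR FDR under 0.05, beside 31.9% of all genes tested. The median log2 fold change of the 8 was -0.65. The largest falls were those of PGD, an enzyme of the pentose phosphate pathway, CS, citrate synthase, and SLC25A1, the mitochondrial citrate carrier, at -1.32, -0.86 and -0.84. SLC25A1 was at 203 and 192 CPM in 786-O-Ctrl and at 110 and 111 CPM in 786-O-VHL. The remaining gene, IDH1, a cytosolic NADPH source, did not pass the test, with a log2 fold change of -0.10 (edgeR FDR = 0.18).

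Downstream, 5 of 10 tested genes of fatty acid uptake and acyl-CoA synthesis were lower and 2 were higher, with a median of -0.43. The shares over all genes tested were 31.9% and 32.6%. FABP5, a fatty acid binding protein, DBI, the acyl-CoA binding protein, and ACSL1, an acyl-CoA synthetase, had log2 fold changes of -1.29, -1.08 and -0.76. ACSL5 and the transporter SLC27A1 rose by 1.44 and 0.44 on this scale. Of 11 glycerolipid synthesis genes, 6 were lower and 1 was higher, with a median of -0.42. The phosphatidate phosphatases LPIN3 and LPIN1 and the acyltransferase AGPAT2 had log2 fold changes of -0.90, -0.68 and -0.72, and the acyltransferase GPAT3 one of 0.60.

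Among 13 tested genes of a list of regulators of lipogenic transcription and related lipid genes, 4 were lower and 2 were higher, with a median of -0.14. The shares over all genes tested were 31.9% lower and 32.6% higher. SREBF1 (ENSG00000072310.17), which encodes the SREBP-1 factors, was at 199 and 196 CPM in 786-O-Ctrl and at 134 and 130 CPM in 786-O-VHL. Its groups did not overlap, and the log2 fold change was -0.59 (SE 0.065, edgeR FDR = 6.01e-09). Its annotated span overlaps that of RAI1 on the opposite strand. SREBF2 and INSIG1, an SREBP target that retains SREBP in the endoplasmic reticulum, had log2 fold changes of -1.27 and -3.84. MID1IP1, which promotes the polymerization of acetyl-CoA carboxylase, rose by 1.13 on the log2 scale, from 52.2 and 54.4 CPM to 103 and 123 CPM. MBTPS2, a protease that releases SREBP, rose by 0.37. MLXIPL, which encodes ChREBP, and THRSP had no row in the count table and so were not analysed here.

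Cholesterol synthesis is the other branch known to be under SREBP control. Of its 21 genes, 19 were lower at an edgeR FDR under 0.05 and 2, CYP51A1 and TM7SF2, did not pass. The median log2 fold change was -1.67, beside 9 of 10 lower and a median of -1.18 for the members. Of all genes tested, 31.9% were lower. Like ACACA, FDFT1 of this list has more than 1 identifier, and the one used, ENSG00000284967.1, was not found in the annotation used here. LSS, DHCR7 and HMGCS1 had log2 fold changes of -2.72, -2.26 and -2.23. Those of FADS2 and FASN, at -2.20 and -2.08, were below the median of this list, and the other 7 members that fell lay above it, between -1.55 and -0.50. The lists were compared by these values only, and whether they differ was not tested.

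**Figure D4:**
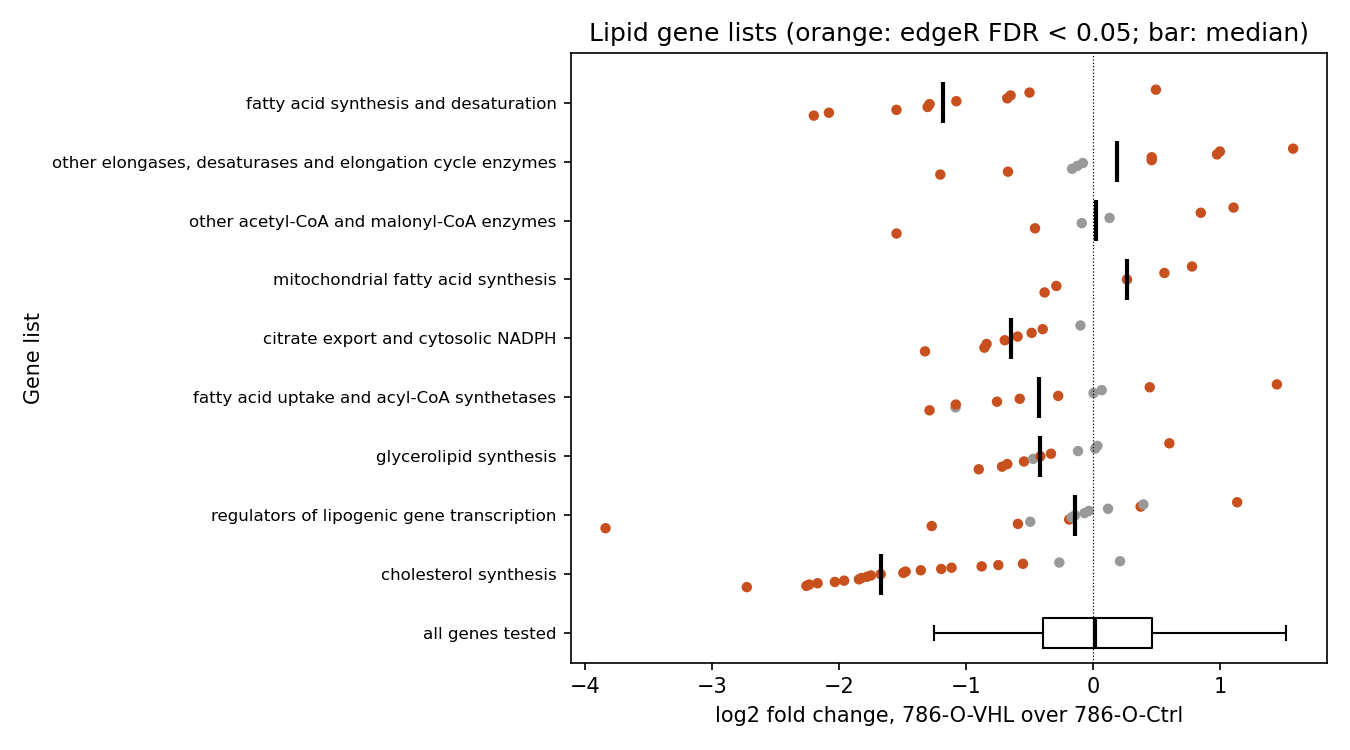
Log2 fold change (786-O-VHL over 786-O-Ctrl, x axis) of each tested gene in the lipid gene lists (y axis), in orange where the edgeR FDR was under 0.05 and grey otherwise. Black bars are list medians, and the bottom box shows the quartiles of all 12335 genes tested with whiskers at the 5th and 95th percentiles. The medians are -1.18 for fatty acid synthesis and desaturation, -1.67 for cholesterol synthesis and 0.19 for the other elongases, desaturases and elongation cycle enzymes.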

How the data were processed

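RNA was extracted in duplicate from each subline, and Illumina libraries were sequenced. The reads were aligned to hg19, and the submitters' processing notes name STAR and CASAVA. The authors deposited 1 table of raw counts per gene, whole numbers for 12912 genes, with no normalization. The sources used here do not give the counting tool, strand setting or annotation. For a repeated symbol, the Ensembl identifier with most counts was used.

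Genes were filtered with filterByExpr (minimum count 10), which left 12335, and were scaled by TMM. Differential expression was tested with the quasi-likelihood F test of edgeR 4.0.16 (R 4.3.3), fitted on group alone with Benjamini-Hochberg adjustment over all genes tested (FDR). CPM values use TMM factors. Standard errors are those implied by the F statistic. Nothing in the labels says that replicates were separate cultures, so p-values measure the spread between these libraries. Counts of replicates differed by more than sampling noise (chi-square per degree of freedom of 2.25 for the Ctrl pair and 2.76 for the VHL pair).

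Coordinates, exon lengths and overlaps are from a GRCh37 annotation (the same assembly as hg19). Alternatives were RLE scaling, library totals, DESeq2 1.42.0, limma-voom (limma 3.58.1), no filter, at least 10 counts in every library, thinning to the shallowest library, each library left out, a replicate block and, chosen after the data were seen, both ACACA identifiers summed. The text names all members, VHL and SREBF1, and from each other list at most 3 genes per direction with the largest fold change at FDR < 0.01. Besides these, PAX8, FADS3, FEN1, FDFT1, IDH1 and the genes named as not passing or not analysed were named after their values were seen. The members and lists were chosen with earlier results of these data known.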

Additional observations from a re-analysis of the deposited data

How the results depend on the processing

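Of the 14 alternatives, all 14 left ACLY, ACSS2, FASN, SCD, ELOVL5, ELOVL6, FADS1, FADS2 and ELOVL1 on the same side of zero and of an FDR of 0.05. In the 4 fits without 1 library, a group had a lone library, which was assumed to vary like the pair of the other group, so that these calls rest on the spread of that pair. The smallest effects were 0.40 for ACSS2 and -0.37 for ELOVL1 on the log2 scale. ACACA was tested under 12 of them and could not be tested after thinning or with at least 10 counts in every library. It lost the call under DESeq2 and without the deeper 786-O-Ctrl library, at log2 fold changes of -1.27 and -1.0, and with both identifiers summed its log2 fold change was -1.02. Members lower at an FDR of 0.05 numbered 8 or 9. The number lower by over 4-fold was 1 with library totals alone and 1 after thinning, where FASN had log2 fold changes of -1.95 and -1.96, and between 1 and 3 with each library left out. It was 1 without the deeper 786-O-Ctrl library, where FASN fell short of 4-fold, and 3 without 786-O-VHL replicate 2, since ACACA was then at -2.64. Library totals moved the median log2 fold change of all genes from 0.02 to 0.15.

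The header gives both 786-O-Ctrl columns the same number, so a replicate block was fitted under either pairing. The members numbered 9 lower and 1 higher at an FDR of 0.05 and 2 past 4-fold under both. Deviations of the deeper 786-O-Ctrl library and 786-O-VHL replicate 1 had a correlation of -0.00462. With 2 libraries per group, the other pairing gives the same value with its sign reversed, 0.00462. The numbers were not taken to pair the samples. The depth of 786-O-VHL replicate 1, where 3 counts are 1.02 CPM, limits ACACA. It also limits other genes at a few CPM there, such as ELOVL4 at 2.035 CPM, ACACB at 3.39 CPM and LSS at 4.07 CPM.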
